A study of Drosophila melanogaster with 5 samples.

Results

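The genomic region of the bantam microRNA gene, ban, was described peak by peak from chromatin immunoprecipitation sequencing (ChIP-seq) of larval Drosophila melanogaster eye discs. The region is the 100 kb of chromosome arm 3L between 600 and 700 kb on genome build dm3. Its members were all deposited peaks that share at least 1 bp with that interval. They numbered 51 of the 24341 peaks in the series. Of these, 23 came from the 11679 peaks of Yorkie (Yki), 15 from the 2557 peaks of Scalloped (Sd) and 13 from the 10105 peaks of RNA polymerase II (Pol II).

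The Yki and Sd peaks came from discs that carried GMR-Gal4 and a UAS transgene for Yki S168A, and the Pol II peaks from discs that carried GMR-Gal4 and a UAS transgene for Yki-V5. Both genotypes therefore overexpressed a form of Yki, and the labels give ectopic cell proliferation as the phenotype of both. GMR-Gal4 drives expression in the part of the eye disc behind the morphogenetic furrow, so discs are mixtures of driver-positive and driver-negative cells. Discs were pooled, with chromatin of about 300 discs per immunoprecipitation and 1 library per antibody. There is thus no replicate spread, no test was made, and every comparison with Pol II is also a comparison of genotypes.

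ban encodes a microRNA that promotes tissue growth and blocks cell death in fly discs. One of its known targets is the proapoptotic gene hid. It is a known target of the Hippo pathway, a kinase cascade that restrains growth by keeping the coactivator Yki out of the nucleus. Yki does not bind DNA on its own and is brought to its targets by partners such as Sd, the fly TEAD-family protein. In the eye disc, Homothorax with Teashirt is another known partner of Yki at ban. In Yki S168A a serine that the pathway phosphorylates to hold Yki back is replaced by alanine. Pol II was recovered with the 8WG16 antibody, and its peaks mark promoters and transcribed genes.

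In the RefSeq gene table of genome Release 6, ban is listed as mir-ban on 3L. The 5 annotated genes before it are all long noncoding RNAs, lncRNA:CR44513, lncRNA:CR42719, lncRNA:CR43337, lncRNA:CR43334 and lncRNA:CR43423. Protein-coding genes on its other side include CG3402, MED30, Rev1 and CG17129. MED30 encodes a subunit of the Mediator complex and Rev1 a translesion DNA polymerase. In that table mir-ban lies within the span of lncRNA:CR43334, and of the genes named here that is the only one whose span holds it. The peak lists are on dm3 and name no genes. No peak was assigned to a gene, and the place of ban among the peaks below was not read from a dm3 annotation.

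The data show a region with a lopsided layout. A single Pol II peak of 15.5 kb, the widest of the whole Pol II list, ran from 628280 to 643758. The 28.3 kb before it held 10 of the 15 Sd peaks, 8 Yki peaks and 2 Pol II peaks. The 56.2 kb after it held 2 Sd peaks, 11 Yki peaks and 10 Pol II peaks. The wide Pol II peak itself overlapped 3 Sd and 4 Yki peaks. Per 10 kb this makes 3.54 Sd peaks before the wide Pol II peak, 1.94 across it and 0.356 after it. The same densities were 2.83, 2.58 and 1.96 for Yki peaks. Peaks are numbered below within each list from the lower to the higher coordinate, and "before" means at lower coordinates, with no strand implied.

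Each peak carries a value from the authors' peak caller, called the score here. No header names its scale, and it was used only to rank, describe and filter peaks within 1 list. A percentile is the percent of a protein's own list with a lower score.

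**Figure D1:**
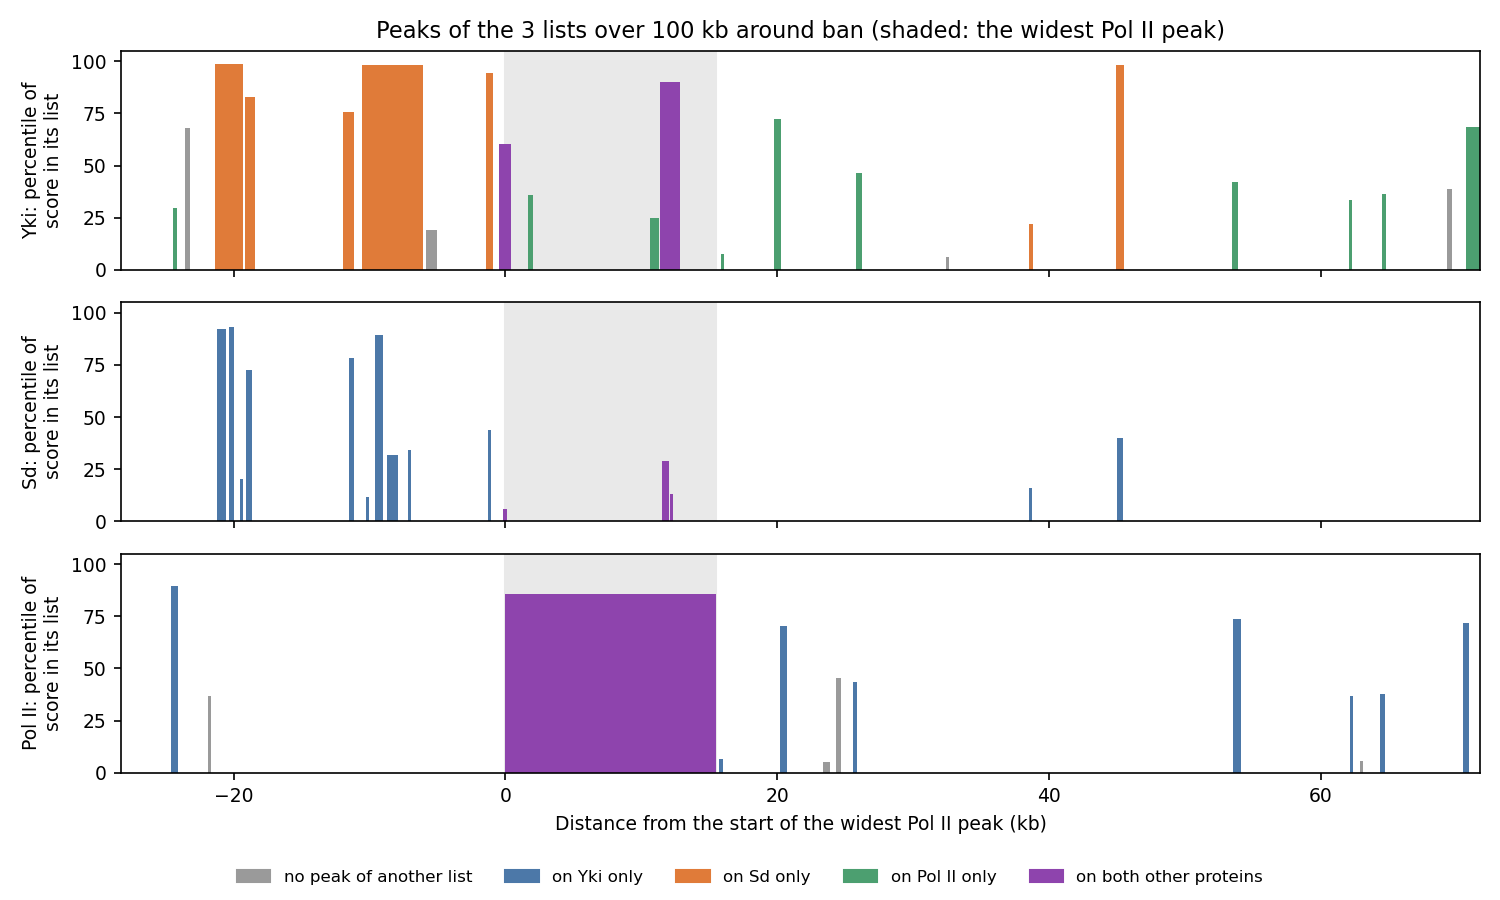
Peaks of Yki, Sd and Pol II by distance in kb from the start of the widest Pol II peak of the region, which is shaded; each bar spans a peak, its height is the percentile of its score in its own list, and its colour gives the other proteins it overlaps. Most Sd bars and the tallest and widest Yki bars stand before the shaded peak, except the bar of Yki peak 18 (percentile 98.3), and most Pol II bars stand after it.

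Yki peaks 1 and 2 opened the region and had no Sd peak. Yki peak 1, from 603850 to 604143 (294 bp, score 13.7), lay wholly inside Pol II peak 1. Yki peak 2, from 604730 to 605052 (323 bp, score 30.4), overlapped no other list and was 574 bp from Pol II. Next came the Yki peak with the highest score of the region. Yki peak 3, from 606914 to 608987, was 2074 bp wide with a score of 82.3, which ranked 161 in the Yki list. It contained 3 Sd peaks and was clear of Pol II.

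Those Sd peaks included the highest-scoring ones of the region. Sd peak 1 ran from 607029 to 607687 (659 bp, score 12.3, percentile 92.3). Sd peak 2 ran from 607919 to 608281 (363 bp, score 12.6, percentile 93.1), 231 bp further on. Sd peak 3, from 608722 to 608936, was narrow and low (215 bp, score 4.58, percentile 20.1). The 3 Sd peaks thus shared a single Yki peak and differed in score. Only 126 bp separated Yki peak 3 from Yki peak 4, from 609114 to 609860 (747 bp, score 42.0). It held Sd peak 4, from 609156 to 609599 (444 bp, score 9.05), and no Pol II peak.

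After a gap of 6443 bp without Yki, a second dense group followed. Yki peak 5, from 616304 to 617171 (868 bp, score 35.3), held Sd peak 5, from 616765 to 617130 (366 bp, score 9.65). Yki peak 6, from 617728 to 622219, was 4492 bp wide, the widest peak of the whole Yki list. Its score of 77.5 ranked 211. It contained 4 Sd peaks and was clear of Pol II, whose nearest peak was 6060 bp away.

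Within Yki peak 6 the Sd peaks again differed in height. Sd peak 6, from 618033 to 618236, was the narrowest of the region (204 bp, score 3.83). Sd peak 7, from 618654 to 619271, was the highest of the 4 (618 bp, score 11.5, percentile 89.5). The broadest Sd peak of the region was Sd peak 8, from 619600 to 620367, although its score was moderate (768 bp, score 5.53, percentile 32.0). Sd peak 9 ran from 621129 to 621354 (226 bp, score 5.68). Gaps between these 4 Sd peaks were 417, 328 and 761 bp. Yki peak 7, from 622409 to 623262, followed after 189 bp. It was broad but low (854 bp, score 10.5, percentile 18.9) and overlapped neither Sd nor Pol II.

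The last Yki peak before the wide Pol II peak had a high score. Yki peak 8, from 626843 to 627389 (547 bp, score 60.2), ended 890 bp short of it. It held Sd peak 10, from 626973 to 627230 (258 bp, score 6.40), whose centre was 14.5 bp from the Yki centre. In contrast to Yki and Sd, Pol II was sparse before the wide peak. Pol II peak 1, from 603678 to 604155 (478 bp), had a score of 103.9, the highest of the region's Pol II peaks. Pol II peak 2, from 606386 to 606613 (228 bp, score 17.3), was 300 bp from Yki peak 3 and overlapped nothing. The 21666 bp from there to the wide Pol II peak held 6 Yki and 10 Sd peaks clear of Pol II.

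**Figure D2:**
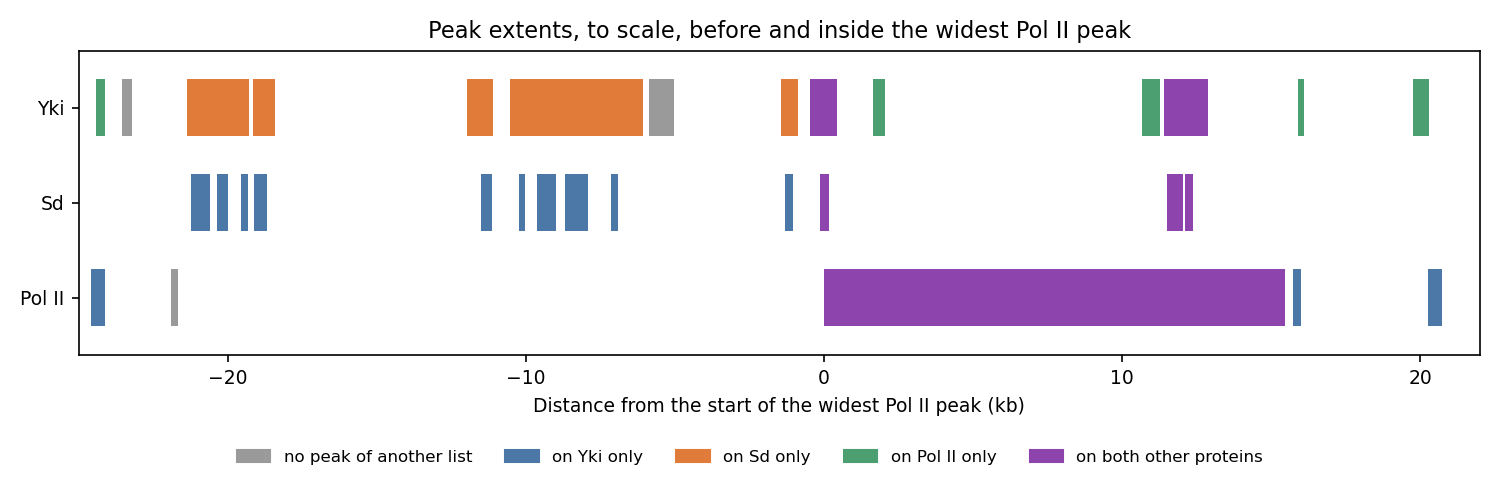
Extents of peaks in kb from the start of the widest Pol II peak, drawn to scale with 1 row per protein and colours for the other proteins overlapped. Sd peaks sit inside Yki peaks, in groups of 3 and 4 within the Yki peaks that are 2074 and 4492 bp wide, and a stretch of 8.60 kb of the wide Pol II peak is free of both.

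Pol II peak 3, the wide one, spanned 15479 bp with a score of 95.9, at percentile 85.8 of the Pol II list. It made up 77.6% of all Pol II bases of the region. Yki peaks met it within the first 13.3% of its length and again from 68.8% onwards. Of its length, 19.1% lay under a Yki or Sd peak. Yki peak 9, from 627814 to 628707 (894 bp, score 26.2), crossed its start, with 466 bp outside and 428 bp inside. Sd peak 11, from 628131 to 628436, lay inside Yki peak 9 and also crossed the start (306 bp, score 3.24). Its centre was about 4 bp from the first base of the Pol II peak, and its score was the lowest of the region's Sd peaks. Yki peak 10, from 629912 to 630335 (424 bp, score 15.9), was centred 11.9% along the Pol II peak and had no Sd.

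No Yki or Sd peak was called over the next 8599 bp, from 630336 to 638934, or from 13.3 to 68.8% of the Pol II peak. A pair of close Yki peaks ended that stretch. Yki peak 11, from 638935 to 639566 (632 bp, score 12.2), had no Sd peak. It was 109 bp from Yki peak 12, from 639676 to 641152 (1477 bp, score 50.2, percentile 89.9). Yki peak 12 held Sd peak 12, from 639774 to 640320 (547 bp, score 5.20), and Sd peak 13, from 640379 to 640652 (274 bp, score 3.97). These Sd peaks were 58 bp apart, the smallest gap between Sd peaks of the region, and were centred 76.0 and 79.0% along the Pol II peak. The last 2606 bp of the Pol II peak held no Yki or Sd peak. The 3 Sd peaks on the wide Pol II peak were low in the Sd list, at percentiles 5.75, 28.7 and 13.1.

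After the wide peak, Yki and Pol II peaks overlapped only in part. Of the 11 Yki peaks there 7 overlapped Pol II, against 54.3% of the whole Yki list. These 7 did so by 48 to 347 bp (median 145 bp), and 0 lay wholly inside a Pol II peak. The share of Yki peaks wholly inside a Pol II peak was not computed for the whole list. The shared part ran from 48 of the 417 bp of Yki peak 15 to 347 of the 375 bp of Yki peak 19. Pol II peak 4, from 644023 to 644287 (265 bp, score 5.50), followed after 264 bp and shared 110 bp with Yki peak 13, from 644178 to 644381 (204 bp, score 7.29). Yki peak 14, from 648051 to 648589 (539 bp, score 33.1), shared 60 bp with Pol II peak 5, from 648530 to 649015 (486 bp, score 64.3). Yki peak 15, from 654104 to 654520 (417 bp, score 19.9), shared 48 bp with Pol II peak 8, from 653854 to 654151 (298 bp, score 23.1). Between these lay 2 Pol II peaks that overlapped nothing. Pol II peak 6 ran from 651629 to 652162 (534 bp, score 5.11), and Pol II peak 7 from 652630 to 652978 (349 bp, score 24.98).

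The middle of the region then had no Pol II peak for 27671 bp, the longest such gap of the region. It held 3 further Yki peaks of very different height. Yki peak 16, from 660722 to 660933, was the lowest Yki peak of the region (212 bp, score 6.73, percentile 6.24) and overlapped nothing. Yki peak 17, from 666809 to 667147 (339 bp, score 11.4), overlapped Sd peak 14, from 666791 to 667064 (274 bp, score 4.21). That was the only Sd peak of the 15 not wholly inside its Yki peak, with 18 bp outside. Yki peak 18, from 673251 to 673827 (577 bp), had a score of 79.1, which ranked 196 in the Yki list. It held Sd peak 15, from 673305 to 673720 (416 bp, score 6.03), and was 7995 bp from the nearest Pol II peak.

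No Sd peak was called from there to the end of the region, and Yki again lay mostly with Pol II. Yki peak 19, from 681795 to 682169 (375 bp, score 18.5), shared 347 bp with Pol II peak 9, from 681823 to 682457 (635 bp, score 71.5). Yki peak 20, from 690377 to 690630 (254 bp, score 15.2), shared 145 bp with Pol II peak 10, from 690486 to 690705 (220 bp, score 17.3). Pol II peak 11, from 691203 to 691402 (200 bp, score 5.25), overlapped nothing. Both Yki peaks scored below the list's median.

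The region closed with 3 Yki and 2 Pol II peaks. Yki peak 21, from 692838 to 693095 (258 bp, score 16.2), shared 167 bp with Pol II peak 12, from 692634 to 693004 (371 bp, score 18.0). Yki peak 22, from 697613 to 697962 (350 bp, score 17.0), overlapped nothing and was 836 bp from Pol II. Yki peak 23, from 699015 to 699982 (968 bp, score 30.8), shared 181 bp with Pol II peak 13, from 698799 to 699195 (397 bp, score 67.3). The nearest Yki peaks outside the region were 6598 bp before it and 4643 bp after it. Those of Pol II were 6403 bp before and 5292 bp after, and those of Sd 68038 bp before and 12057 bp after. No Sd peak was thus called for a long way before the region, and the next one after it was nearer.

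Yki peaks of the region carried Sd in 9 of 23 cases, or 39.1% (exact Clopper-Pearson 95% interval 19.7 to 61.5), against 20.1% of the whole Yki list. The intervals treat peaks as independent, which neighbouring peaks are not, and cover counting error only. Yki peaks that held 2 or more Sd peaks numbered 3 of 23, or 13.0% (2.78 to 33.6), against 1.16% of the list. Pol II overlapped 12 of the 23 Yki peaks, or 52.2% (30.6 to 73.2), near the 54.3% of the list. With peaks trimmed to the 200 bp around their centres, this share was 21.7%. Shares with trimmed peaks or cut lists, here and below, were computed for the region only. The list percentages beside them are for untrimmed peaks and full lists. By class, 7 Yki peaks had Sd only (30.4%, against 10.7% of the list), 10 had Pol II only (43.5%, against 44.9%), 2 had both (8.70%, against 9.38%) and 4 had neither (17.4%, against 35.0%).

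All 15 Sd peaks lay on a Yki peak (78.2 to 100.0%), which is near the 97.7% of the Sd list. Of these 15 pairs, 14 had the Sd peak wholly inside the Yki peak, or 93.3%, against 93.4% of the 2503 pairs of the series. The centres of overlapping Sd and Yki peaks were a median of 149.5 bp apart in the region (10.0 to 1839 bp, 15 pairs), against 60.5 bp over all pairs. Of the 15 Sd peaks, 9 shared their Yki peak with another Sd peak, or 60.0%, against 11.5% of the Sd list. With peaks so trimmed, 8 of the 15 Sd peaks overlapped Yki, or 53.3%. Pol II overlapped 3 of the 15 Sd peaks, or 20% (4.33 to 48.1), against 39.8% of the Sd list, and all 3 were on the wide Pol II peak. With peaks trimmed in the same way, or lists cut to their upper 50% by score, 0 Sd peaks overlapped Pol II. Both results were fixed by values given above and say nothing more about the share. The middle of the wide Pol II peak lies in its stretch without Sd, and its 3 Sd peaks scored below their list's median. Seen from Pol II, 9 of 13 peaks overlapped Yki, or 69.2% (38.6 to 90.9), against 63.3% of the list. Trimming brought this to 38.5%. A single Pol II peak overlapped Sd (7.69%, against 9.90%), and a single one was wider than 2 kb (7.69%, against 3.56%).

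Yki peaks with Sd had the higher median score and width in the region, with overlapping ranges. The 9 with Sd scored 11.4 at the lowest, 50.2 at the median and 82.3 at the highest. The 14 without Sd scored 6.73, 16.1 and 33.1. The score ranges overlap through Yki peaks 9 and 17, which had Sd, while the other 7 Yki peaks with Sd all scored above every Yki peak without it. Widths were 339 to 4492 bp with Sd (median 868 bp) and 204 to 968 bp without (median 362.5 bp). These overlap too, since Yki peak 23, without Sd, was 968 bp wide and Yki peak 17, with Sd, 339 bp. Outside the region the median scores were 41.3 for 2336 Yki peaks with Sd and 18.5 for 9320 without, so the order was the same there.

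The order for Pol II was not the same. In the region, the 12 Yki peaks on Pol II scored 7.29 at the lowest, 17.3 at the median and 50.2 at the highest, and the 11 clear of Pol II scored 6.73, 35.3 and 82.3. The ranges overlap widely, but the 6 highest Yki scores included 1 peak on Pol II, Yki peak 12. Outside the region the medians ran the other way, with 25.8 for 6324 Yki peaks on Pol II and 16.3 for 5332 clear of it. The Yki list was also cut into 4 equal bands by score. The highest band (scores of 34.7 and more) held 7 peaks of the region. All 7 had Sd (59.0 to 100.0%), against 48.9% of the 2919 Yki peaks of that band elsewhere. Only 1 of the 7 lay on Pol II, or 14.3% (0.361 to 57.9), against 66.0% elsewhere.

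The band just below the list's median score differed from the highest band in its overlap with Pol II. It held 7 peaks of the region, of which 6 lay on Pol II, or 85.7% (42.1 to 99.6), against 51.6% elsewhere. None of these 7 had Sd, against 9.73% elsewhere. A count of 0 allows a share of up to 42.9%, taken as 3 of 7, or 41.0% by the Clopper-Pearson bound. In the lowest band 2 of 5 peaks lay on Pol II (33.6% elsewhere) and 1 of 5 had Sd (3.7% elsewhere). In the band just above the median 3 of 4 lay on Pol II (65.8% elsewhere) and 1 of 4 had Sd (17.8% elsewhere). The bands were formed after the values had been seen, and these contrasts were not tested. For Pol II, all 5 peaks above the list's median score of 30.2 overlapped Yki (47.8 to 100.0%), against 88.2% elsewhere. At or below that median 4 of 8 did, or 50.0% (15.7 to 84.3), against 38.3% elsewhere.

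**Figure D3:**
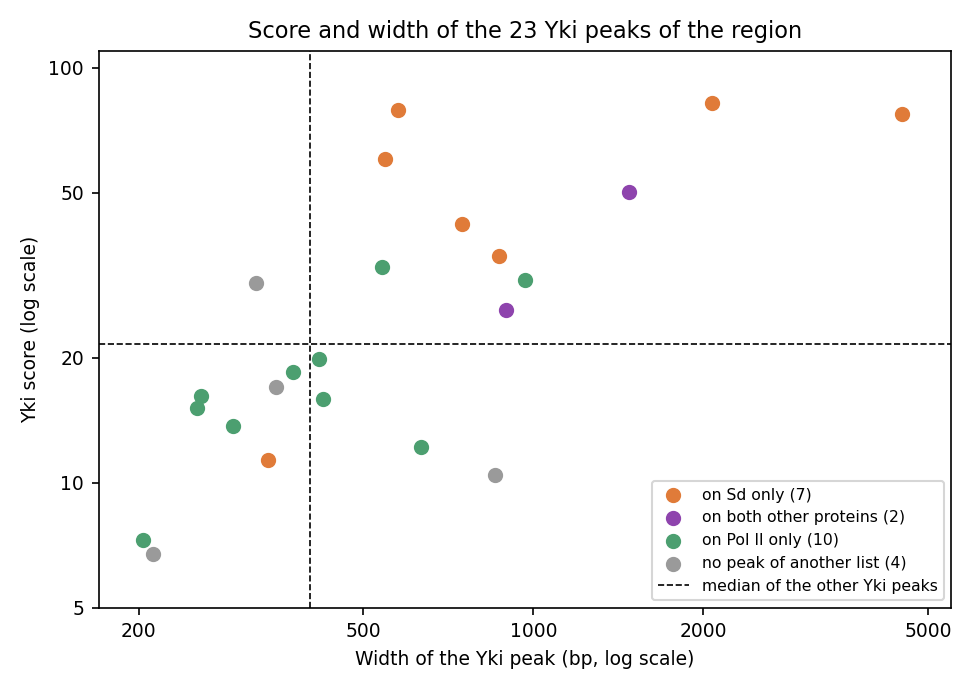
Score against width in bp, both on log scales, for the 23 Yki peaks of the region; colours give the other proteins overlapped and dashed lines mark the medians of the other Yki peaks, 402 bp and 21.6. The peak with the highest score, 82.3, and the widest peak, 4492 bp, both carry Sd without Pol II. Yki peak 12 (1477 bp, score 50.2) carries both, and Yki peak 23 (968 bp) carries Pol II only.

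Distances within each list show where the crowding lay. Neighbouring Sd peaks of the region were a median of 830.5 bp apart, edge to edge (58 to 26138 bp, 14 gaps), against 22326.5 bp over the 6 arms (X, 4 and the left and right arms of the other autosomes). For Yki the medians were 3302.5 bp (109 to 8599 bp, 22 gaps) and 3669 bp. For Pol II they were 2421.5 bp (264 to 27671 bp, 12 gaps) and 2308 bp. Measured from centre to centre, the Pol II median of the region was 3870 bp. The median Sd spacing of the region was thus far below that of its list, while median Yki and Pol II edge-to-edge spacing was close to theirs. Peaks per Mb were still above the level of the arms for every list. They were 230 against 96.0 for Yki, 150 against 20.8 for Sd and 130 against 82.7 for Pol II. The region, however, was known from earlier results to be rich in Sd peaks.

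By bases covered, all 3 lists stood above their level over the arms, Pol II only through its wide peak. Yki peaks covered 18.1% of the region, against 4.76% of the 6 arms. Sd peaks covered 5.94%, against 0.646%, and Pol II peaks 19.9%, against 5.18%. The wide Pol II peak alone covered 15.5% of the region, with 706 Pol II bases before it and 3755 after it. Any of the 3 lists covered 33.8% of the region. Most of the Yki bases, 10199 of 18119, lay before the wide Pol II peak, with 2961 across it and 4493 after it; the other 466 belonged to Yki peak 9, ahead of its start. For Sd, 4121 of 5938 bases lay before it.

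Among 1206 windows of 100 kb on the arms, the region had the most Sd peaks. The next window, on 2L from 400001 to 500000, had 13 Sd, 16 Yki and 24 Pol II peaks, and the median window had 2 Sd peaks. The Sd peaks of that 2L window covered more bases, 6761 against 5938 in the region. The first rank thus holds for the number of Sd peaks and not for the bases they cover. By Yki peaks the region ranked 17, with a median window of 9. By Pol II peaks it ranked 260, with a median window of 7. The count of Sd per 100 Yki peaks was 65.2 in the region, against a median of 18.8 in the 579 windows with at least 10 Yki peaks, and 4 of those windows had a higher value. With the window grid shifted by 50 kb, the region fell into a pair of windows that ranked 2 and 10 by Sd peaks, with 13 and 9. When each list was cut to its upper 50% by score, the region held 5 Sd peaks and ranked 8. That rank was shared, since 11 windows, the region's included, held 5.

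**Figure D4:**
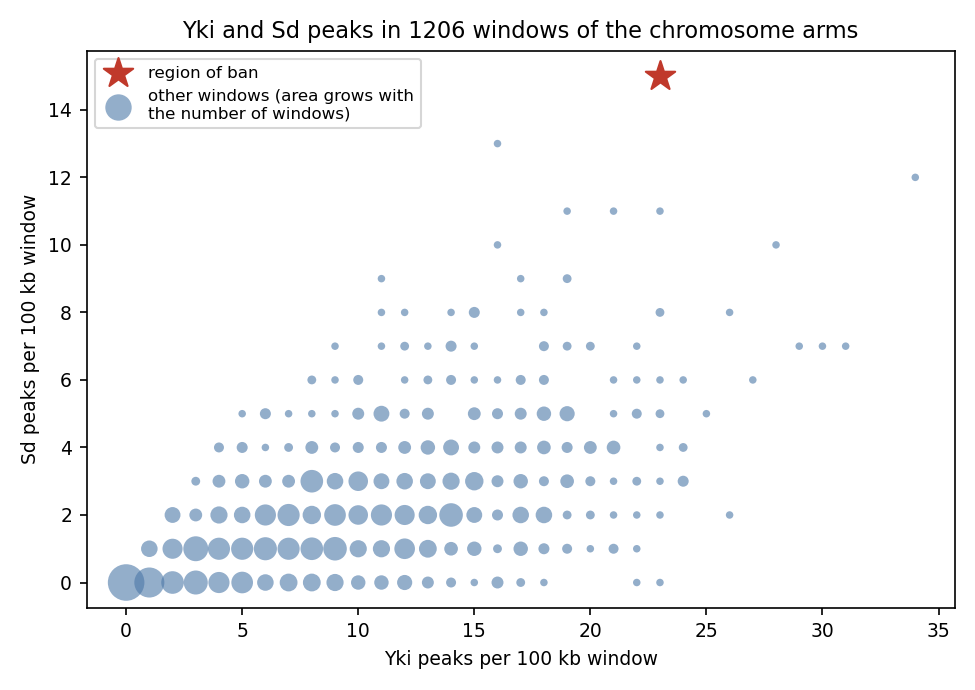
Sd peaks against Yki peaks in 1206 windows of 100 kb, with the region of ban as a star and the area of the other points growing with the number of windows. The star stands highest, at 15 Sd and 23 Yki peaks; 16 windows have more Yki peaks.

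The 9 Sd peaks from 607029 to 621354 fell within 14.3 kb and on 4 Yki peaks. Any 9 consecutive Sd peaks on the arms spanned a median of 354 kb (2460 runs, which share peaks with each other). Only 1 run was shorter, 10.5 kb on 2L from 12003616 to 12014132. Yki peaks 3 and 6 were among 17 Yki peaks in the series with 3 or more Sd peaks, and 8 of the 17 had no Pol II peak (47.1%, against 45.7% of the Yki list). Yki peak 6 exceeded the next widest Yki peak, 4133 bp on 3R from 17473737 to 17477869, where 3 Sd peaks and 0 Pol II peaks overlapped it. Of the 43 Yki peaks wider than 2 kb, 37 had Sd (86.0%, against 20.1% of the list) and 25 had Pol II (58.1%, against 54.3%). The run length of 9 was chosen after the values had been seen.

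The wide Pol II peak was set beside the other 29 Pol II peaks of at least 5 kb. Its 4 Yki and 3 Sd peaks compare with medians of 3 and 1 in these. Of the 29, 27 had a Yki peak and 15 an Sd peak, against 63.3% and 9.90% of the whole Pol II list. In that list 11 Pol II peaks of any width had 4 or more Yki peaks, 6 of them among the 29. A single one had 3 or more Sd peaks, a 9.82 kb Pol II peak on 3L from 16030347 to 16040169, with 6 Yki and 5 Sd peaks. Per 10 kb the region's peak held 2.58 Yki and 1.94 Sd peaks, against medians of 3.82 and 0.895 in the 29. By this density 22 of the 29 had more Yki and 6 had more Sd. The next widest Pol II peak, 15.3 kb on 2R from 5522285 to 5537618, held neither. With lists cut to their upper 50% by score, 2 Yki peaks and 0 Sd peaks remained on the wide peak of the region. All its Sd peaks scored below their list's median, so the cut removed them. Wide peaks meet more peaks of any list by their length, and no correction for length was made beyond these densities.

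**Figure D5:**
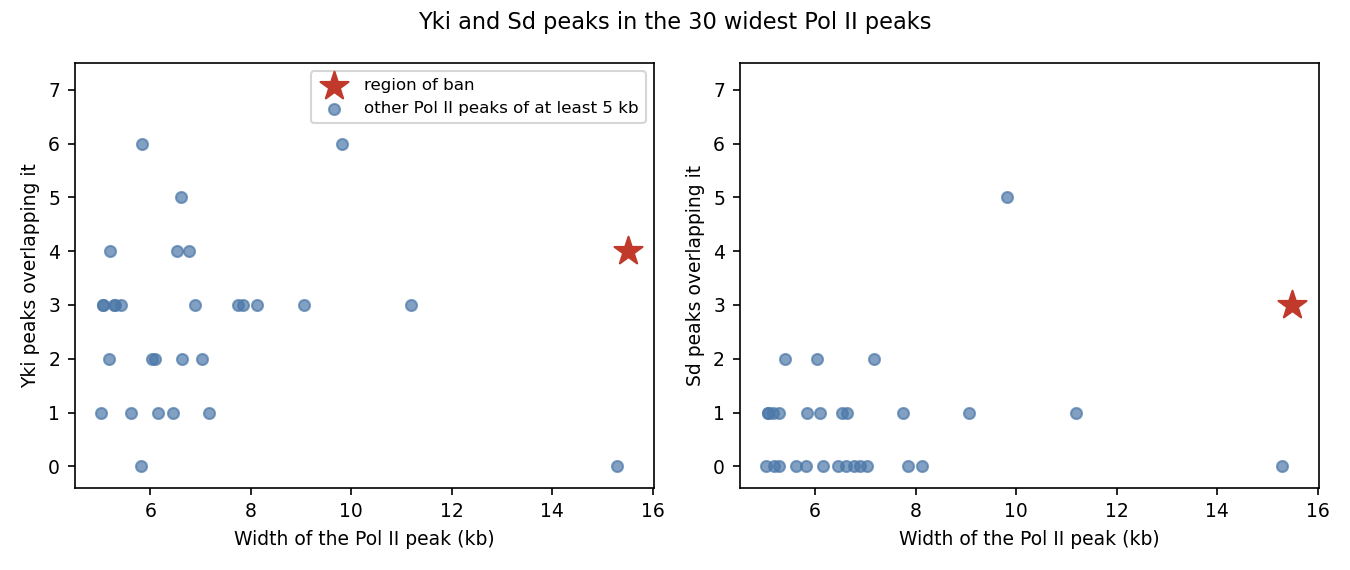
Yki peaks (left) and Sd peaks (right) that overlap each Pol II peak of at least 5 kb, against its width in kb, with the peak of the ban region as a star. The star has the greatest width, 15.5 kb, with 4 Yki and 3 Sd peaks; 1 of the 29 others has more Sd peaks.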

How the data were processed

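ChIP-seq peak lists of 3 libraries (Yki, Sd and Pol II, 1 each) were used; the 2 input libraries were not analysed here. CASAVA 1.8.2, Bowtie and MACS2 with build dm3 were used upstream, per the submitters' processing notes; other versions, parameters and the control library were not given in the sources used here. The deposited score of each peak has no stated scale. The smallest score was 2.00 in the Sd list and 3.01 in both other lists; scores were not compared between lists. Read depth is unknown, and a missing peak is a site not called.

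Coordinates are 1-based. Overlap meant at least 1 bp, and gaps are edge to edge. Windows ran from base 1 of each arm to the last peak end. Intervals are exact Clopper-Pearson. Overlap and gap counting was tested on simulated data. The tools were scipy 1.17.1, pandas 2.3.3, numpy 2.4.6 and matplotlib 3.10.9 under Python 3.11.15. All 51 peaks of the region are named; the rule also named the 5 genes on each side of ban (not all are reported here), the Pol II peaks of at least 5 kb and the windows richest in Sd. Members, region and comparisons were chosen with earlier results of these data known. Sequences are not reported here.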

Additional observations from a re-analysis of the deposited data

How the results depend on the processing

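Of 41 alternative values for 15 results, 24 stayed within 1.5 times the count, rank or distance, or within the exact 95% interval of the share. Counting peaks by centre, widening the region by 10 kb and an Sd score of at least 3 (met by all 15 Sd peaks of the region) were among these for the counts, as was the 50% overlap rule for all 6 shares. Under that rule, however, Yki peaks on Pol II fell from 52.2% to 34.8%. Pol II peaks on Yki fell from 69.2% to 46.2%, and the other shares did not change. Both lower values lie within wide intervals. When each list was cut to its upper 50% by score, the region held 11 Yki, 5 Sd and 5 Pol II peaks and ranked 8 by Sd, its wide Pol II peak held 2 Yki and 0 Sd peaks, and 0% of Sd peaks lay on Pol II and 0% of Pol II peaks on Sd. Such a cut takes away about 50% of each list, so a fall of that order in the counts is built in. Sd peaks fell further, from 15 to 5, and so did Pol II peaks, from 13 to 5. Their median scores in the region were 5.68 and 23.1, against 6.86 and 30.2 in the rest of their lists. All Sd peaks on the wide Pol II peak scored below their list's median, so the results of 0 followed from the cut. A shifted window grid gave ranks of 2 and 10. With peaks reduced to their central 200 bp, 21.7% of Yki peaks and 0% of Sd peaks lay on Pol II, 53.3% of Sd peaks on Yki, and 38.5% of Pol II peaks on Yki and 0% on Sd. Reduction leaves only the middle of the wide peaks, which by itself can lower these shares. For Sd and Pol II it fixed the result of 0, since no Sd peak lay at the middle of the wide Pol II peak. The shares of the whole lists after reduction were not computed. Widening the wide Pol II peak by 5 kb gave 7 Yki peaks. Centre to centre, Pol II peaks were a median of 3870 bp apart; the wide peak is part of that distance. No paired analysis was possible because only 1 library per antibody was used. With 1 library each and unknown depth, neither replicate error nor the effect of depth on the number of peaks could be measured.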

Other observations

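The windows on either side of the region differed from each other. The window after it, on 3L from 700001 to 800000, held 17 Yki, 9 Sd and 11 Pol II peaks, and was among the 10 windows richest in Sd. It included a Pol II peak of 6.09 kb from 749211 to 755301, which overlapped 2 Yki peaks and 1 Sd peak. The window before the region, from 500001 to 600000, held 15 Yki, 4 Sd and 7 Pol II peaks. Of the Yki peaks, 7 of 17 after the region and 3 of 15 before it had Sd, against 20.1% of the whole Yki list. The share before the region was thus at the level of the list. These windows were singled out after their values had been seen.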
